A study of Mus musculus with 18 samples.

Results

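Cytosines called as 5-methylcytosine (m5C) inside introns of coding genes made up 502 of the 25890 distinct sites listed in 9 RNA bisulfite sequencing libraries of mouse cortical neurons (1.94%). A site was counted here when it lay on the strand of a coding RefSeq transcript, between that transcript's ends, and in no exon of any RefSeq transcript, coding or noncoding, on that strand. For comparison, 17998 sites lay in exons of coding transcripts (mRNA exon sites, 69.5%). The neurons came from the cerebral cortex of C57BL/6 mice on fetal day 18 and were grown in culture. The 3 groups were untreated neurons (control) and neurons deprived of oxygen and glucose for 1.5 h or 3 h, by glucose-free medium and a hypoxic gas mixture, and then returned to normal medium for 24 h (OGD/R 1.5 h and OGD/R 3 h). Each group had 3 bisulfite libraries, made from total RNA depleted of ribosomal RNA, and all 3 groups shared this preparation. The comparisons address whether OGD/R, a culture model of ischaemia followed by reperfusion, changed which intronic cytosines were called and how strongly.

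Introns are removed from the precursor RNA by the spliceosome and most of their sequence is then degraded. Some introns carry small RNAs that outlive the intron: box C/D and box H/ACA small nucleolar RNAs (snoRNAs), which guide chemical modification of ribosomal and other RNAs, and their relatives in Cajal bodies, are trimmed out of introns of host genes, many of which encode ribosomal proteins, translation factors or nucleolar proteins. In bisulfite sequencing of RNA an unmethylated cytosine is read as a thymine, and a cytosine that resists conversion, because it is methylated or because the RNA is folded or bound, is read as a cytosine.

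The value listed for each site is a score of the methylation caller that grows with both coverage and methylation level, in whole numbers from 0 to a cap of 1000. The site lists give neither coverage nor level, so the depth behind a score is not known from them, and a score at the cap is a lower limit. Total sites per library were 5907 to 6254 in control, 5423 to 5745 after OGD/R 1.5 h and 7266 to 7772 after OGD/R 3 h. The 3 libraries of a group are described as replicates of a sequencing pool, and a supplementary table of the study gives coverage for some sites of the control and OGD/R 3 h libraries, used here only to compare libraries. In it, the coverage of sites shared by the 3 libraries of either group differed by less than the sampling noise, while OGD/R 1.5 h coverage was not analysed here. They were therefore counted as 1 sample per group: the spread given below is between libraries, and no p-value was computed. Of 23 neuronal marker genes, 2 had an mRNA exon site and 1 an intron site, whereas of 25 intestinal epithelial genes 25 had an mRNA exon site and 2, Fcgbp and Lgals4, an intron site. Over all 21000 coding genes, 2690 had an mRNA exon site and 167 an intron site. Both lists were chosen with earlier results of these data known. A called site is not an expression level, and what these counts contribute to the results was not tested.

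The results turn on a few short stretches, shown here 5′ to 3′ on the strand of the site, as 29 bases of the GRCm38 (mm10) genome, with called cytosines in capitals, those of the snoRNA exon included. The first set holds the stretches called in every OGD/R 3 h library and in no control library, with capitals for cytosines called in any OGD/R 3 h library. They flank snoRNAs in introns of Nop58, Ncl, Eef2, Rps2 and 2410002F23Rik.
Nop58 beside Snord70, chr1:59691931-59691959, plus strand: gacttcattgttgtCaatgatgtataCCt
Nop58 beside Snord11, chr1:59704781-59704809, plus strand: aaagaccatgtgttCaatgatgatttCtg
Ncl beside Snora75, chr1:86351280-86351308, minus strand: ctgcagtatCttCtCattgagCtCCtttC
Eef2 beside Snord37, chr10:81178936-81178964, plus strand: gggaatctctgaccCaCCatgatgaCgga
Rps2 beside Snora64, chr17:24720772-24720800, plus strand: aCtCtCtCaCtCtgCatggttaCaCaagg
2410002F23Rik beside Snord88a, chr7:44250127-44250155, plus strand: atgcttgcggaCCCCCttgatgtCCagCa

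The second set holds stretches called in more than 1 group, with capitals for cytosines called in any library, and is shown because the same cytosines can be compared between groups. Snord98 lies in Ccar1, Snord82 in Ncl and Snord68 in Rpl13. The Zfp949 stretch lies in a 7SL-like copy, and that of Agtpbp1 holds the intron site called in all 9 libraries.
Ccar1 beside Snord98, chr10:62765608-62765636, minus strand: tatgatgtgtaaatCCtattCCattgCtg
Ncl beside Snord82, chr1:86356314-86356342, minus strand: cagagtagcactagCaCaagtgatgagtg
Rpl13 beside Snord68, chr8:123103030-123103058, plus strand: cggtggaatgatgaCattCtCCggaatCg
Snrpb intron 5, chr2:130172946-130172974, minus strand: atgatgaaatagatCCttgaCtgaagCtg
Zfp949 intron 2, chr9:88553412-88553440, plus strand: ggggtggaCcggCCCaggtCggaaatgtg
Agtpbp1 intron 21, chr13:59470839-59470867, minus strand: tgtgtgctgtttCtCcttttttttttttt

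The third set holds stretches called in every library of 1 group only, control for Ikzf3, Hivep2 and Tfdp2 and OGD/R 1.5 h for Rbm5, with capitals for cytosines called in that group.
Ikzf3 intron 7, chr11:98473751-98473779, minus strand: gtgtagtatCtgttCttatCagtttaata
Hivep2 intron 3, chr10:14076494-14076522, plus strand: aaaaaaaaaaaaggCtggaaaggaaagaC
Tfdp2 intron 2, chr9:96227986-96228014, plus strand: aagggaataagggtCtgaggaCagagaga
Rbm5 intron 6, chr9:107758302-107758330, minus strand: agtaggattaggaaCcCagtggtagattg

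Fewer intron sites were listed after OGD/R 1.5 h than in control, whereas OGD/R 3 h had about the control number in fewer genes. The control libraries listed 112, 125 and 118 intron sites, the OGD/R 1.5 h libraries 57, 76 and 84, and the OGD/R 3 h libraries 133, 117 and 115. The means were 118 ± 6.51, 72.3 ± 13.9 and 122 ± 9.87 (SD, n = 3 libraries), so that OGD/R 1.5 h lay 0.71 log2 units below control without overlap of the libraries, and OGD/R 3 h 0.04 above it with overlap. As a share of all sites of a library, intron sites were 1.95% ± 0.08 in control, 1.28% ± 0.22 after OGD/R 1.5 h and 1.63% ± 0.08 after OGD/R 3 h, and every library of either OGD/R group lay below every control library. Between 62 and 76 host genes carried an intron site in a control library, against 28 to 45 after OGD/R 1.5 h and 40 to 41 after OGD/R 3 h. The number of intron sites per host gene was 1.74 ± 0.08, 1.91 ± 0.19 and 3.01 ± 0.20 in the 3 groups (SD, n = 3 libraries). The mRNA exon sites per host gene were likewise most numerous after OGD/R 3 h, with 2.92 ± 0.045, 2.85 ± 0.093 and 4.36 ± 0.15 sites per host gene, in 1348, 1261 and 1118 genes on average. Chained within 50 nt, the sites formed 66 to 81 loci per control library, 28 to 53 per OGD/R 1.5 h library and 42 to 46 per OGD/R 3 h library. The OGD/R 3 h share lay 0.40 percentage points above control at a score of at least 10, and 0.67 above it among sites called in all 3 libraries, where the host gene numbers were equal. The comparison of shares also turned with the exons used: with curated RefSeq exons alone, 1243 sites were intronic, of which 625 lay in predicted noncoding and 116 in predicted coding exons, and their share of a library was 0.76 and 0.82 percentage points higher than control after OGD/R 1.5 h and 3 h.

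**Figure D1:**
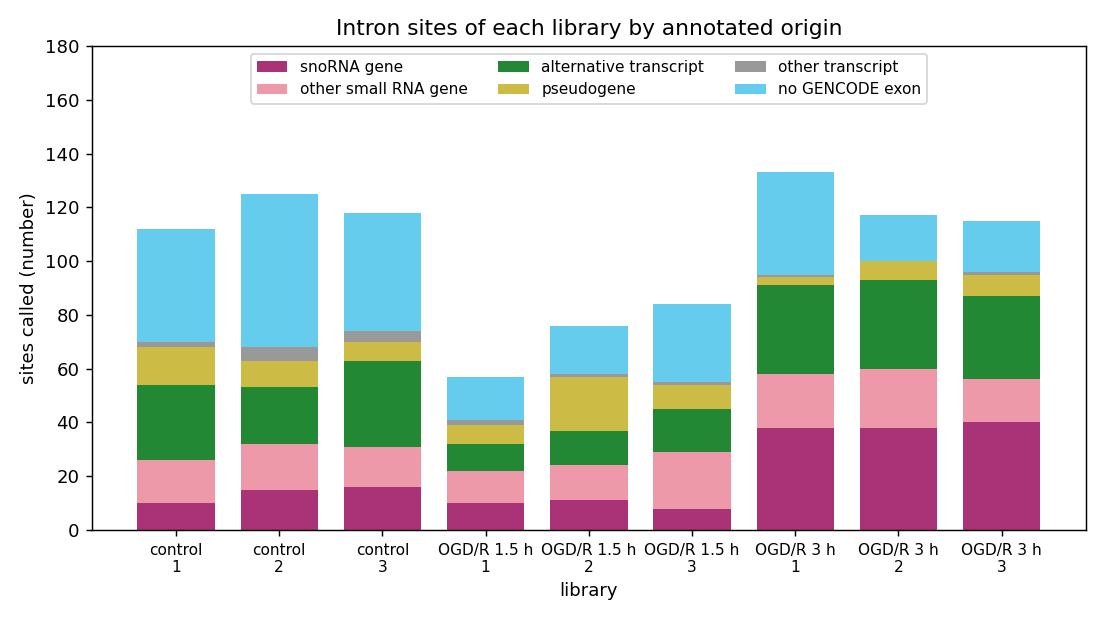
Number of intron sites in each of the 9 libraries (bars), split by what the annotation holds at the site. The snoRNA segment is 38 to 40 sites in the OGD/R 3 h libraries and 8 to 16 in the other 6, and the segment with no GENCODE exon is 42 to 57 sites in control and 16 to 38 in the OGD/R groups.

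Intron sites differed in what they lay in. Of the 502 sites, 68 (13.5%) lay in a gene annotated as snoRNA or within 30 nt of a snoRNA or Cajal body RNA, 67 (13.3%) in another small RNA gene, 117 (23.3%) in an exon of an alternative GENCODE transcript, 60 (12%) in a pseudogene and 13 (2.59%) in another transcript, and 177 (35.3%) met no GENCODE exon on their strand. The snoRNA sites numbered 10, 15 and 16 in the control libraries, 10, 11 and 8 after OGD/R 1.5 h, and 38, 38 and 40 after OGD/R 3 h. All 3 OGD/R 3 h libraries thus lay above the other 6, and snoRNA sites were 31.9% ± 3.14 of their intron sites, against 11.5% ± 2.36 in control and 13.8% ± 4.05 after OGD/R 1.5 h (SD, n = 3 libraries). Sites with no GENCODE exon went the other way, from 40.1% ± 4.74 in control to 28.8% ± 5.45 and 19.9% ± 7.60. Outside small RNA genes the control libraries listed 86 to 93 intron sites, the OGD/R 1.5 h libraries 35 to 55 and the OGD/R 3 h libraries 57 to 75, so that without the small RNA genes OGD/R 3 h also lay below control, by 0.48 log2 units.

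Few of the sites lay at splice junctions. The shares of all cytosines of these introns at such positions were not computed, so the counts of position show no preference. They lay in 174 introns with a median length of 5018 nt, and 100 of them (19.9%) lay in intron 1. Of the 69 sites (13.7%) within 30 nt of any exon, the nearest exon was that of a snoRNA or Cajal body RNA for 61, of a miRNA for 3, of a coding gene for 4 and of a pseudogene for 1. Of all 502 sites, 2 lay within 30 nt of the donor of their host intron and 0 within 30 nt of its acceptor, while 239 (47.6%) lay over 1000 nt from any exon on the strand. Exons of the opposite strand overlapped 10 sites. Repeat sequence held 17.1% of the sites and 26.6% of all cytosines of the same introns.

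Scores of intron sites were high after OGD/R 3 h. The median score of a library was 4, 4 and 6.5 in control, 5, 3 and 3.5 after OGD/R 1.5 h and 32, 74 and 42 after OGD/R 3 h. All 3 OGD/R 3 h medians lay above all others, and the group means were 4.83 ± 1.44, 3.83 ± 1.04 and 49.3 ± 21.9 (SD, n = 3 libraries), a log2 ratio to control of 3.35 for OGD/R 3 h and -0.33 for OGD/R 1.5 h. At mRNA exon sites the library medians ran only from 7 to 12, so intron sites scored lower than mRNA exon sites in all 6 control and OGD/R 1.5 h libraries and higher in all 3 OGD/R 3 h libraries. Sites at the cap made up 2.4% to 3.57% of intron sites in control, 1.75% to 3.57% after OGD/R 1.5 h and 17.4% to 21.4% after OGD/R 3 h. This share lay above that of mRNA exon sites in 9 of 9 libraries. The mRNA exon shares averaged 1.61%, 1.53% and 3.59% in the 3 groups. Since neighbouring cytosines share reads, the highest score of each locus was also taken: its median was 4 to 7 in control, 4 to 11.5 after OGD/R 1.5 h and 29.5 to 46 after OGD/R 3 h, where 11 loci reached the cap in each library against 1 or 2 elsewhere. Outside small RNA genes the OGD/R 3 h medians were 11 to 86 and those of control 3 to 4. The OGD/R 3 h sites there lay in 20 to 26 loci per library, against 58 to 69 in control, and 5 sites in Cdc23 stood at 1000 in each OGD/R 3 h library. The scores by locus above cover all intron sites, so these medians can rest on a few dense loci.

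**Figure D2:**
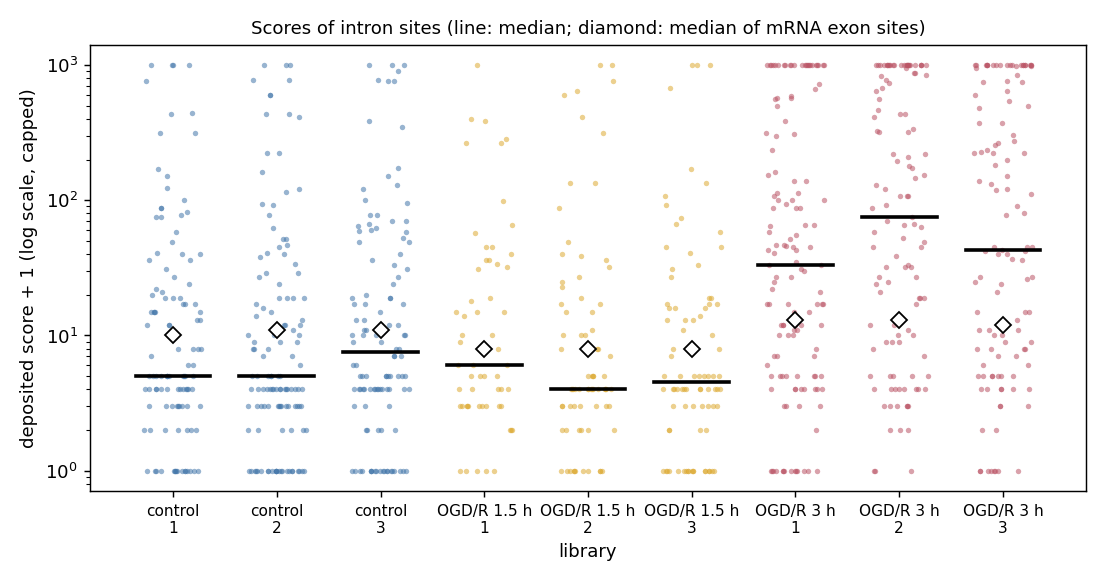
Score of every intron site plus 1 on a log axis, by library, with a line at the median and a diamond at the median of mRNA exon sites. The OGD/R 3 h medians, at scores of 32 to 74, lie above the diamonds, and those of the other 6 libraries, at 3 to 6.5, lie below them.

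Contexts of intron sites were less often CG than those of mRNA exon sites. A cytosine before a guanine (CG) made up 12.8% to 16.1% of intron sites in control libraries, 10.5% to 20.2% after OGD/R 1.5 h and 9.77% to 12.2% after OGD/R 3 h, below the mRNA exon share of the same library in 9 of 9 libraries. The CHH share, where H is any base but guanine, was 41.1% to 58.6% and lay above the mRNA exon share, 32.7% to 42.6%, in 9 of 9 libraries. Outside small RNA genes it was 40.4% to 48% after OGD/R 3 h and overlapped the mRNA exon share there, 40.4% to 42.6%. In control it was 34.9% to 45.2% against 32.7% to 33.5%, and after OGD/R 1.5 h 45.5% to 55.8% against 36.8% to 38.8%. Among all 988861 cytosines of the 174 introns the contexts were 4.49% CG, 21.9% CHG and 73.6% CHH, so called sites held more CG and CHG than the introns they lay in, 12.7% and 38% over the 502 sites. The CG share differed from control by 0.25 percentage points after OGD/R 1.5 h and by -3.08 after OGD/R 3 h, and only in the second comparison did the libraries not overlap. The mRNA exon share also lay below control, at 21.1% ± 0.72 after OGD/R 3 h against 27.4% ± 0.53 (SD, n = 3 libraries). Without small RNA genes the OGD/R 3 h intron share was 15.8% ± 1.14 CG and that of control 16.2% ± 1.91 (SD, n = 3 libraries), and the difference was -0.011 percentage points at a score of at least 10 and 1.42 at 100 nt or more from an exon.

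**Figure D3:**
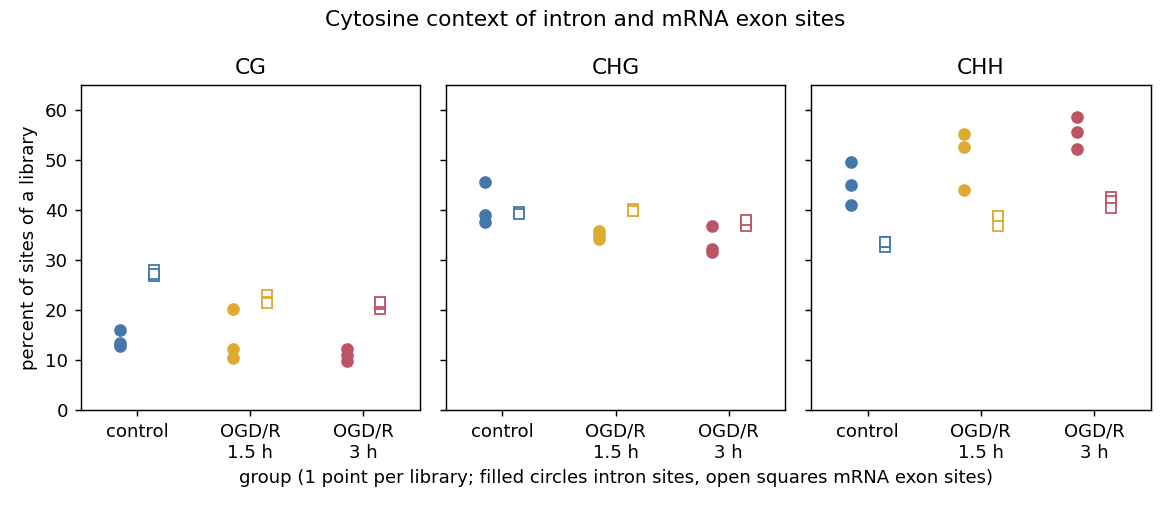
Share of sites in the CG, CHG and CHH contexts, as a percent of the intron sites (filled circles) or mRNA exon sites (open squares) of each library. The circles lie below the squares in every library for CG, at 9.77% to 20.2% against 20.3% to 27.9%, and above them for CHH.

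The sites beside snoRNAs sat on the shoulders of the annotated small RNA. The 61 sites within 30 nt of such an exon belonged to 22 small RNAs in 19 host genes: 12 box C/D snoRNAs (Snord), 7 box H/ACA snoRNAs (Snora), 2 Cajal body RNAs (Scarna) and 1 unnamed snoRNA, Gm12238. They lay 16 nt or less from the exon, with a median of 8 nt, and 52 lay on its 5′ side and 9 on its 3′ side. At most of these sites the small RNA gene as drawn by GENCODE extends over the site, whereas the RefSeq exon ends short of it. Each of the 22 small RNAs also had sites in its RefSeq exon. By group, 6 of them had flank sites in control, 10 after OGD/R 1.5 h and 20 after OGD/R 3 h, beside exon sites in 13, 15 and 20. In each group every small RNA with flank sites also had exon sites. The 22 were picked by a flank site in any library, and several had one only after OGD/R 3 h. Their counts by group therefore do not stand for all small RNAs, which were not counted.

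**Figure D4:**
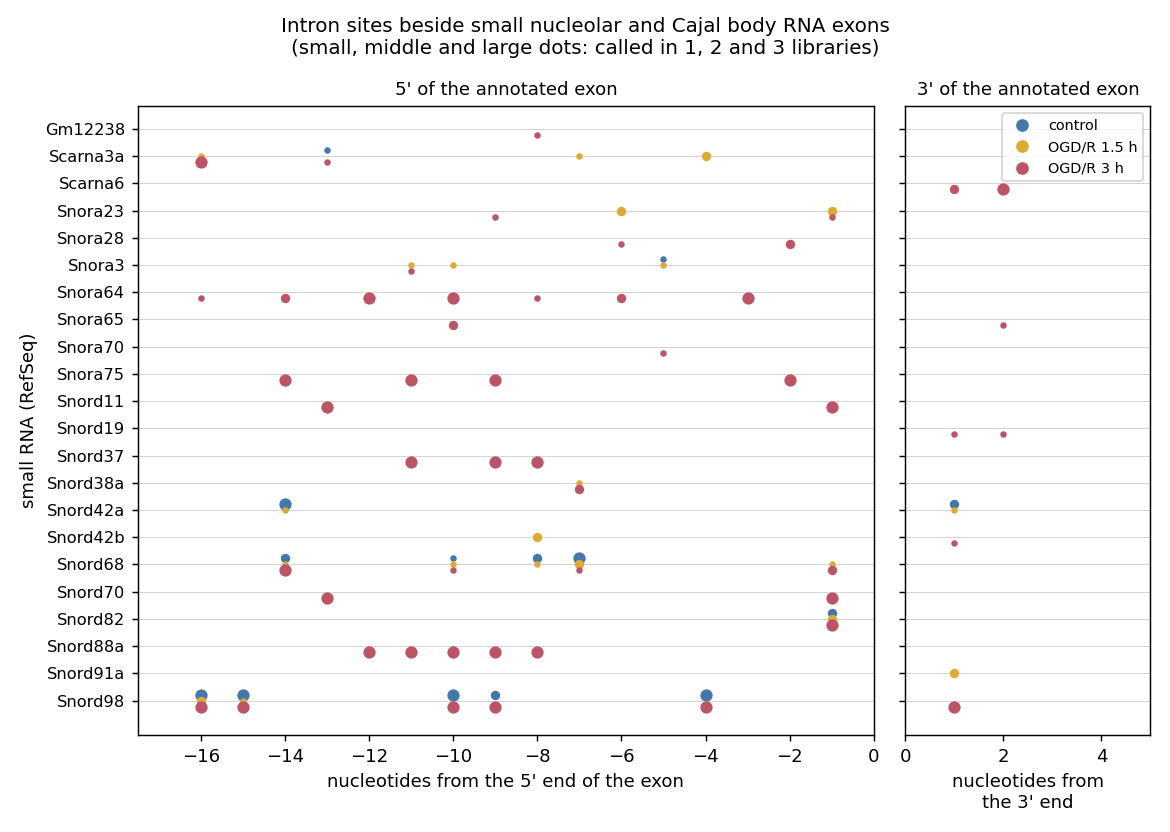
Position of the 61 intron sites beside 22 small RNA exons, in nucleotides from the nearer end of the exon, with 1 dot per group and with larger dots for sites called in more of its 3 libraries. Most dots lie 5′ of the exon, and 20 of the 22 small RNAs carry OGD/R 3 h dots against 6 with control dots. The 22 were picked by a site in any library, so these counts do not stand for all small RNAs.

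Nop58, a core protein of box C/D snoRNPs, carried 4 sites, 13 and 1 nt before Snord70 in intron 2 and 13 and 1 nt before Snord11 in intron 9. Scores at the first Snord70 site were 1000, 1000 and 1000 in the OGD/R 3 h libraries, and at the first Snord11 site 1000, 436 and 1000. No control and no OGD/R 1.5 h library listed any of the 4, or any cytosine of either snoRNA exon. In both windows the called cytosine at the centre is followed, after 2 bases, by the letters tgatg, which also occur in box C of this snoRNA class.

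Ncl encodes nucleolin, a major protein of the nucleolus, and its sites fell into 2 introns. Beside Snora75 in intron 12, 4 sites were called in all 3 OGD/R 3 h libraries, with scores of 44 to 754, and in none of the other 6. The site 1 nt before Snord82 in intron 5 was called in all 3 groups: its score was 35 and 58 where control called it, in 2 libraries, 48 and 57 where OGD/R 1.5 h did, also in 2, and 1000 in all 3 OGD/R 3 h libraries. Here the control and OGD/R 1.5 h scores overlapped and OGD/R 3 h stood at the cap.

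The translation genes Eef2 and Rps2, and the gene 2410002F23Rik, gave further cases. Eef2, the elongation factor that moves the ribosome along, had 3 sites 8 to 11 nt before Snord37 in intron 4, each at 1000 in all 3 OGD/R 3 h libraries and absent from the other 6, although OGD/R 1.5 h replicate 2 called 10 cytosines in the Snord37 exon. Eef2 mRNA exon sites, in contrast, were listed in every library, 18, 18 and 19 in control, 14, 14 and 11 after OGD/R 1.5 h and 21, 20 and 20 after OGD/R 3 h. Rps2, a protein of the small ribosomal subunit, had 7 sites 3 to 16 nt before Snora64 in intron 3, of which the OGD/R 3 h libraries called 5, 4 and 6 at scores of 107 to 588 and the other 6 libraries none. In 2410002F23Rik the 5 neighbouring cytosines 8 to 12 nt before Snord88a were all called in all 3 OGD/R 3 h libraries, at 38 to 370, and in no other. The windows printed above show both as runs of adjacent or nearly adjacent cytosines.

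Other snoRNA hosts carried sites in every group. Rpl13, of the large ribosomal subunit, had 5 sites 1 to 14 nt before Snord68 in intron 3, and each score listed there was 1000 in whichever of the 9 libraries called it. The libraries called 2 or 3 of them in control, 1 to 3 after OGD/R 1.5 h and 2 or 3 after OGD/R 3 h. Ccar1, a regulator of the cell cycle and apoptosis, had 6 sites around Snord98 in intron 12, of which the control libraries called 5, 4 and 5, the OGD/R 1.5 h libraries 1 each and the OGD/R 3 h libraries 6 each. At chr10:62765622 the scores were 2, 1 and 11 in control and 100, 561 and 483 after OGD/R 3 h. At chr10:62765616, 6 nt away in the same RNA, they were 2, 8 and 10 against 152, 460 and 221, and neither pair of groups overlapped. At the 2 sites beside them, chr10:62765610 and chr10:62765621, the groups overlapped.

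Not all of them were higher after OGD/R 3 h. In Rpl23a, another large-subunit protein, the site 14 nt before Snord42a had scores of 1, 39 and 14 in the control libraries and 24 in 1 OGD/R 1.5 h library, and no OGD/R 3 h library listed it. The exon of Snord42a held 9 called cytosines in each control library and 0 in each OGD/R 3 h library. The site 8 nt before Snord42b, in intron 1 of the same gene, was called in 2 OGD/R 1.5 h libraries only, at 401 and 134. Beside Snord91a in Tsr1, a ribosome maturation factor, 1 site was likewise called in 2 OGD/R 1.5 h libraries only. Of a list of 31 coding hosts of snoRNAs, 8 had an intron site, 2 of them in control, 3 after OGD/R 1.5 h and 8 after OGD/R 3 h, whereas 11, 11 and 12 had an mRNA exon site. Over all 21000 coding genes 167 had an intron site, 120, 65 and 61 of them in the 3 groups. An mRNA exon site was found in 2690, of which 1800, 1740 and 1438 in the 3 groups. The list leaves out Rpl13, Rpl23a, Ccar1 and Rpl27a, which had snoRNA flank sites in control, so its counts by group do not stand for all hosts.

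The letters TGATGA, the core of box C, were sought on both strands of the 29-base window around each site. They stood on the strand of the site at 16.2% of the snoRNA sites and at 4.58% of all intron sites, against 1.33% of mRNA exon sites. On the opposite strand they stood at 0.598% of intron and 0.428% of mRNA exon sites. Of the intron sites with TGATGA on their strand, 8 lay in alternative transcripts, among them those of Snrpb, whose window holds them near its 5′ end.

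Genes of splicing and RNA binding were among the hosts with sites in alternative transcripts. Snrpb, a core protein of the spliceosomal snRNPs, had 10 sites over 63 nt of intron 5, within a GENCODE retained-intron transcript. The gene belongs to the 31 listed snoRNA hosts above and not to the 45 genes below. No small RNA gene was annotated at these 10 sites. The control libraries called 6, 1 and 5 of them at scores of 1 to 114, the OGD/R 1.5 h libraries 3, 1 and 2 at 169 to 674, and the OGD/R 3 h libraries 2, 5 and 1 at 236 to 1000, so that scores of the OGD/R groups lay above those of control although no cytosine was called in all libraries of a group. Rbm3, an RNA-binding protein induced by cold, had 7 sites over 32 nt of intron 3: control called none, OGD/R 1.5 h 0, 0 and 3, and OGD/R 3 h 3 each, at scores of 0 to 18. Rbm5, a splicing regulator, held 1 site called in all 3 OGD/R 1.5 h libraries and no other, at 65, 38 and 15. Of 45 splicing and RNA-binding genes, 8 had an intron site (Srsf5, Ddx5, Luc7l, Rbm5, Rbm39, Rbm3, Hnrnph1 and Hnrnpl), 3 in control, 3 after OGD/R 1.5 h and 6 after OGD/R 3 h. Over all coding genes 167 of 21000 had one, and 31 of the 45 listed genes had an mRNA exon site, 21, 24 and 22 of them in the 3 groups. After OGD/R 3 h, Srsf5, Ddx5, Rbm5, Rbm39 and Hnrnpl were each called in 1 library only, at scores of 0 to 4. The Ddx5 site lay in the small RNA gene Gm25994. The Luc7l sites lay in the pseudogene Gm16580, whose windows matched Pabpc1 at 97 to 99 of 101 bases. Hnrnph1 had 3 sites in intron 5 called in control libraries only, with scores of 2 to 93. Itpk1, an inositol phosphate kinase gene, held 2 sites per control library, against 0, 0 and 1 after OGD/R 1.5 h and 0 in each OGD/R 3 h library.

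Small RNA genes other than snoRNAs were led by copies of the signal recognition particle RNA. Zfp949, a zinc finger gene, carried 31 sites over 182 nt of intron 2, the most of any host, all in the annotated small RNA gene Gm26461. Control libraries called 7, 8 and 8 of them, OGD/R 1.5 h libraries 9, 7 and 6 and OGD/R 3 h libraries 12, 13 and 11. The windows of 15 of these sites matched the 7SL RNA gene Rn7s1 at 94 to 101 of 101 bases, so these sites are uncertain. At chr9:88553426 control scored 221 and 172 in the 2 libraries that called it, OGD/R 1.5 h 56, 315 and 73, and OGD/R 3 h 42 and 25, again in 2. Hydin, an axonemal gene, had 19 sites in Gm22701, which resembles the same RNA in part, with 6, 5 and 4 in control, 0, 3 and 7 after OGD/R 1.5 h and 4, 3 and 3 after OGD/R 3 h. The counts of Hydin overlapped between groups, and those of Zfp949 were higher in every OGD/R 3 h library than in any other.

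Several small RNA genes were called in some groups only. In Gm25106, an snRNA gene in intron 7 of the lymphoid factor gene Ikzf3, 3 cytosines were called in all 3 control libraries and in no other. Their scores were 1000, 772 and 772, then 762, 772 and 908, and then 431, 597 and 345. These were the highest-scoring of the sites called in all 3 control libraries and no other, although the window of the last occurred at 13 places in the genome. In Gm23037, inside the zinc finger gene Zfp318, the OGD/R 1.5 h libraries called 3, 3 and 4 sites at 1 to 26, the OGD/R 3 h libraries 3, 4 and 2 at 3 to 144, and control none. In intron 3 of the dioxygenase gene Alkbh1, 21 to 44 nt from the exon of Mir3068 in a locus that GENCODE types as snoRNA, 6 sites were called in control libraries 2 and 3 (5 and 3 of them) and in none of the other 7. Celf2 sites, in the 7SK-like Gm26315, came from 1 library, OGD/R 1.5 h replicate 3, which called 4.

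Pseudogenes and repeated sequence contributed sites of uncertain origin. After conversion, the 61-base window of 45 intron sites (8.96%) occurred elsewhere in the genome, against 1.43% of mRNA exon sites, and 91 intron sites matched another annotated transcript at 91 or more of 101 bases. In Ankrd36, 11 sites lay in the pseudogene Gm11964, whose windows matched Edf1, a transcriptional coactivator, at 98 to 101 bases. Of these, 7 were called in OGD/R 1.5 h replicate 2, 1, 4 and 1 in the OGD/R 3 h libraries and 0 in control. In Alpk1, an innate immune kinase gene, 9 sites lay in the pseudogene Gm16238, and their windows matched other pseudogenes, Rpl19-ps11 or Gm13216, at 99 to 100 bases. In Smchd1, a chromatin protein gene, 7 sites lay in Gm4707, and matched the ATP synthase gene Atp5b at 93 to 95 bases. Chd9, a chromatin remodelling gene, had 15 sites, all in OGD/R 3 h replicate 1, at scores of 0 to 87, and all 15 windows occurred at 2 places in the genome.

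Sites with no annotated exon included the intron site called most widely. In Agtpbp1, a carboxypeptidase gene needed by neurons, the cytosine at chr13:59470853 in intron 21 was called in all 9 libraries. Its score was 40, 46 and 26 in control, 385, 413 and 92 after OGD/R 1.5 h and 1000, 735 and 1000 after OGD/R 3 h. The 3 groups did not overlap, with mean changes of 2.72 and 4.60 on the log2(score + 1) scale against control, the second limited by the cap. Its neighbour at chr13:59470855 did not follow it, with 442, 411 and 94 in control, 98 and 66 in 2 OGD/R 1.5 h libraries and 338 and 196 in 2 OGD/R 3 h libraries. In Snx2, a sorting nexin gene on chromosome 18, 2 cytosines scored 312, 436 and 762 in control and 976 to 1000 after OGD/R 3 h and were absent after OGD/R 1.5 h. In Cdc23, a subunit gene of the anaphase-promoting complex on the same chromosome, 5 cytosines over 31 nt of intron 2 scored 1000 in all 3 OGD/R 3 h libraries and were absent from the other 6, and the window of 1 of them occurred at 41 places in the genome.

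The other leading hosts without an exon mostly had low scores. Nrxn3, a synaptic adhesion gene, had 6 sites 42 to 55 nt into intron 8, called in OGD/R libraries only, at 0 to 48, of which 1 was called in all 3 OGD/R 1.5 h libraries and no other. Dnm1, the dynamin of synaptic vesicle retrieval, had 10 sites in intron 10, with 4, 6 and 4 in control, 2, 0 and 3 after OGD/R 1.5 h and 2, 0 and 0 after OGD/R 3 h. Every control library thus called more than any OGD/R library, at scores of 0 to 28. Hivep2 and Tfdp2, transcription factor genes, had 4 sites each, called in control only, at 4 to 48 and 4 to 30. Slc43a2, an amino acid transporter gene (7 sites), and Vmp1, an autophagy gene (8 sites, 4 of them in a pseudogene), had sites in every group. Slc43a2 scores were 1 to 120 in control, 1 to 2 after OGD/R 1.5 h and 0 after OGD/R 3 h. Those of Vmp1 were 1 to 10, 2 to 12 and 4.

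Sharing between libraries differed by group. Of the 502 sites, 283 (56.4%) were called in 1 of the 9 libraries, against 49% of mRNA exon sites. The sites of all 3 libraries of a group together numbered 241 in control, 172 after OGD/R 1.5 h and 207 after OGD/R 3 h, of which 29 (12%), 7 (4.07%) and 65 (31.4%) were called in all 3, whereas for mRNA exon sites these shares were 26.6%, 18% and 30.8%. Of these lists, 170 control sites, 96 OGD/R 1.5 h sites and 138 OGD/R 3 h sites appeared in no other group (70.5%, 55.8% and 66.7%, against 61.9%, 61.6% and 72.7% of mRNA exon sites), and 20 sites (3.98%) appeared in all 3 groups. A pair of libraries of 1 group shared 20.3% to 29.9% of their joint intron sites in control, 11.8% to 15.1% after OGD/R 1.5 h and 40.9% to 48.7% after OGD/R 3 h, and a pair from different groups 4.31% to 11.4%. For mRNA exon sites these shares were 40% to 40.9%, 29.7% to 30.5%, 42.7% to 45.3% and 6.5% to 10.8%. The intron ranges lay below these within control and within OGD/R 1.5 h and overlapped them otherwise.

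Against control, 54 of 406 intron sites (13.3%) were called in all 3 OGD/R 3 h libraries and in no control library, a share near that of all sites, 12.8%. In the opposite direction 17 (4.19%) were called in all 3 control libraries and in no OGD/R 3 h library, against 8.06% of all sites. For OGD/R 1.5 h, 4 of 364 intron sites (1.1%) were gained in this sense and 16 (4.4%) lost, against 5.4% and 8.2% of all sites. Both OGD/R groups were set against the same control libraries. The 48 sites called in all 3 OGD/R 3 h libraries and in neither other group lay in 13 host genes, among them 5 each in Cdc23 and 2410002F23Rik, 4 each in Ncl and Nop58, 3 each in Eef2 and Rps2, and 1 each in Atg16l1, Ccar1, Cplane1, Ogt and Zfp949. The corresponding control list held 11 sites in 8 genes, and the OGD/R 1.5 h list 2 sites, in Nrxn3 and Rbm5. These were 48 of 207 OGD/R 3 h, 11 of 241 control and 2 of 172 OGD/R 1.5 h intron sites. At mRNA exon sites the same lists held 1841 of 8234, 1019 of 6811 and 630 of 7051 sites. The intron share was thus near the mRNA exon share for OGD/R 3 h and below it for the other 2 groups.

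Scores could be compared at the few sites called in all 6 libraries of a comparison. Of 7 such intron sites for OGD/R 3 h, in Ccar1, Agtpbp1 and Snx2, 5 scored above control in all 3 libraries without overlap, against 30% of the 557 sites of any kind, and 0 scored below, against 8.62%. For OGD/R 1.5 h there were 2 such intron sites, in Agtpbp1 and Dvl1, of which 1 lay above, against 21.8% of 689 sites, and 0 below, against 9%. With 7 and 2 sites in 3 and 2 genes, these shares describe those genes.

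Host genes included many genes that carried sites in mature mRNA. The 502 sites lay in 167 host genes, of which 67 (40.1%) held 1 site, 74 held 2 to 4 and 26 held 5 or more, and the last held 231 of the sites. Of the 167 hosts, 75 (44.9%) also had an mRNA exon site in some library and 53 had both in the same library. Within a library, 23.9% to 30.3% of hosts had an mRNA exon site in control, 7.14% to 21.4% after OGD/R 1.5 h and 17.5% to 19.5% after OGD/R 3 h, and every OGD/R library lay below every control library. For the gene lists that follow, the counts over all 21000 coding genes were 167 with an intron site and 2690 with an mRNA exon site. With so few hosts, a list of this size can hold 0 intron sites whatever its genes. Of 20 genes of the hypoxia response 0 had an intron site and 4 an mRNA exon site. Of 14 genes of m5C enzymes and readers, 2 had intron sites: Alkbh1 in control only, and Tet3 in control and OGD/R 1.5 h. Erythroid (14 genes), neutrophil (15), astrocyte (5) and smooth muscle and fibroblast (11) lists had 0 intron sites each. An mRNA exon site was found in 3, 3, 1 and 7 of their genes. Neutrophil genes with such a site numbered 0 in control, 0 after OGD/R 1.5 h and 3 after OGD/R 3 h. In the same order, erythroid genes numbered 1, 0 and 2, and astrocyte genes 1, 1 and 1. Smooth muscle and fibroblast genes numbered 5, 5 and 6. What these few genes contribute to the group differences was not tested.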

How the data were processed

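RNA bisulfite sequencing was analysed in 9 libraries with deposited site lists, and the 9 mock samples were not analysed here. Per the labels and the study's methods, the authors converted RNA with bisulfite, trimmed reads (cutadapt 1.9.3), aligned them to mm10 and called sites in each library with meRanCall, and both the bisulfite and the mock library entered each list, in a way that is not stated. The deposited score is the caller's methylation score on a larger scale, capped at 1000. Only sites past the authors' limits on coverage and level are listed, so an absent site was not shown to be unmethylated.

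Sites were placed on RefSeq (release 108.20200622, GRCm38) and GENCODE M21 exons of their strand. Small RNA genes include 30 nt beside RefSeq snoRNA, Cajal body RNA and miRNA exons. Copies were 61-base windows identical after conversion, and near copies 101-base windows matched by blastn 2.17.0 in at least 91 bases. Counts used Python 3.11.15 (pandas 2.3.3, numpy 2.4.6). The class of each site was checked by a linear scan and the overlap rule tested on simulated data.

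Libraries of a group counted as 1 sample, so values are per library, with the SD over 3 libraries. Numbering of libraries follows the labels. Named genes were the 10 hosts with most sites, the hosts and sites that differed most between groups, sites called in all libraries or all libraries of 1 group only, and list genes with an intron site. Other genes named, the printed windows and the alternatives on exon models, small RNA genes, copies and loci were chosen after the values were seen. Members, gene lists and site classes were chosen with earlier results of these data known. Some genes that met this rule are not reported here.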

Additional observations from a re-analysis of the deposited data

How the results depend on the processing

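No paired analysis was possible because no test was run: the libraries of a group counted as 1 sample. Values here compare an OGD/R group with control as log2 ratios of library means (site numbers, host genes, median scores), as differences in percentage points (share of a library, CG share), as percent of a list called in 1 group only, or as numbers of shared sites whose scores lay above control without overlap. Of the alternative values, 171 kept their direction and size, 61 moved and 24 changed sign, and the cause was not tested.

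With curated RefSeq exons only, the site number came to 0.077 (1.5 h) and 0.50 (3 h), the library share to 0.76 and 0.82, median score to 1.54 and 1.50, CG share to -3.10 (1.5 h), host genes to -0.43 (3 h), shared sites above control to 42 and 35, and the 1-group lists to 47.6% (1.5 h) and 48.0% (control), and 67.7% (3 h) and 56.0% (control). Outside small RNA genes the site number was -0.48 (3 h), the share -0.61 (3 h), CG -2.14 (1.5 h) and -0.39 (3 h), host genes -1.43 (3 h), shared sites 3 (3 h), and the control lists 84.9% (1.5 h) and 89.6% (3 h). Without sites in any GENCODE exon, site numbers were -1.09 and -0.91, shares -0.39 and -0.45, CG -6.80 and -0.47, host genes -1.60 (3 h), median score 5.72 (3 h), shared sites 3 (3 h), and lists 86.1% (control, 1.5 h), 94.1% (control, 3 h) and 87.8% (3 h). At least 100 nt from an exon, OGD/R 3 h gave -0.29 for site number, -0.53 for share, 1.42 for CG, -1.22 for host genes, 2.09 for median score and 3 shared sites. With no other site within 10 nt, the shares were -0.43 and -0.63, the lists 85.3% (1.5 h), 90.97% (control, 1.5 h) and 91.6% (control, 3 h), shared sites 0 and 0, and for OGD/R 3 h site number -1.02, CG -7.13, host genes -1.17 and median score 1.63.

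At a score of at least 10, CG was 7.83 (1.5 h) and -0.011 (3 h), the 1-group lists 63.9% (1.5 h) and 71.9% (control, 3 h), and for OGD/R 3 h the site number was 0.83, share 0.40, host genes -0.052, median score 2.26 and shared sites 3. For sites called in all 3 libraries of a group, site numbers were -2.05 and 1.16, host genes -1.58 and 0, CG -20.7 and -9.92, share 0.67 (3 h), and lists 93.1% (control, 1.5 h), 75.9% (control, 3 h) and 89.2% (3 h). For sites called in at least 2, the site number was -1.16 (1.5 h), CG -4.77 (1.5 h), share -0.17 (3 h) and the control list 84.7% (1.5 h). Windows found at 1 place in the genome gave -0.043 for site number (3 h) and -1.91 for CG (1.5 h), and sites with no exon on the opposite strand -0.012 for site number (3 h). The mean score in place of the median gave 1.98 (3 h), and the highest score of each locus 0.38 (1.5 h).

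Leaving out each library in turn, OGD/R 1.5 h gave site numbers of -0.83 to -0.56, shares of -0.77 to -0.55, CG of -2.69 to 2.16, host genes of -0.97 to -0.65, median scores of -0.57 to -0.06, lists of 67.7% to 77.9% (1.5 h) and 74.6% to 85.1% (control), and 1 to 2 shared sites. OGD/R 3 h gave -0.029 to 0.081, -0.37 to -0.29, -3.73 to -2.08, -0.83 to -0.68, 2.94 to 3.62, 78.8% to 83.1% (3 h), 79.1% to 86.3% (control) and 5 to 7 in the same order. The site number of OGD/R 3 h changed sign without OGD/R 3 h replicate 1, and the CG difference of OGD/R 1.5 h without control replicate 1 (-0.10), control replicate 2 (-0.40) or OGD/R 1.5 h replicate 3. Without that last library, both shared sites lay above control.

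The site lists give no coverage or methylation level, so absence from a list is no measure of a low level, and scores at the cap of 1000 hide larger differences.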
